A study of Mus musculus with 9 samples.

Results

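Semaphorins, plexins and neuropilins are the ligands, receptors and co-receptors of a guidance system that steers growing axons and migrating neurons. The members described here are all rows of the deposited gene table whose symbol begins with Sema and a digit or with Plxna to Plxnd, or reads Nrp1 or Nrp2. They number 31 of 21210 genes, of which 20 are semaphorins, 9 are plexins and 2 are neuropilins. The rule reads the symbols and no measured value, although the gene family was picked for description with earlier results of these data known. The data are poly-A RNA profiles of 3 cell populations sorted out of embryonic day 14.5 cortex, its lateral part, in the mouse strain C57BL/6. Proliferating progenitors were negative for a red reporter of Btg2 (RFP-), differentiating progenitors were positive for it (RFP+), and neurons were positive for a green reporter of Tubb3 (GFP+), with 3 libraries each. Every library came from embryos of the same genotype, given in the labels as Btg2GFP/Tubb3GFP, although the titles name red for the Btg2 gate. Each held cells pooled from more than 3 embryos of different litters, after meninges and ganglionic eminences had been removed.

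Semaphorins of class 3 are secreted and bind neuropilins, which have no signalling domain of their own and hand the signal to plexins of the A group. Semaphorins of classes 4 to 6 span the membrane, and Sema7a is held to it by a lipid anchor. Many of these act on plexins directly, with class 4 best known as ligands of B plexins, class 6 of A plexins, Sema7a of Plxnc1 and Sema3e of Plxnd1. Activated plexins act through their GTPase-activating domain and through collapsin response mediator proteins on the cytoskeleton of the growth cone. In the embryonic cortex the system is known for guiding callosal and subcortical axons, for orienting dendrites and for routing interneurons.

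Normalised read counts are whole numbers that the authors scaled to be comparable between libraries. Their totals ran from 17531558 to 18201880 in proliferating progenitors, from 18420135 to 19077173 in differentiating progenitors and from 21442620 to 22076409 in neurons. Whole numbers missing from the replicate 1 libraries put their reads near 0.722 of the normalised total in proliferating progenitors, 0.816 in differentiating progenitors and 0.846 in neurons, and the depth of the other libraries is unknown. Adjusted p-values are from limma over the 15828 genes that reached 10 normalised read counts in 3 or more libraries, with a threshold of 0.05, and log2 changes are on the log2(value + 1) scale, ± SE. The limma fit held no replicate number, although libraries of equal number deviated together. Member calls that changed with replicate number as a block are given with their gene. Values written with ± beside a mean are SD with n = 3. Marker lists followed the gates. The intermediate progenitor list holds Btg2 and the pan-neuronal list holds Tubb3, the genes of the reporters. For these genes the sorting itself favours that pattern, so the sums are no independent check. The 11 radial glia markers summed to between 136175 and 153012 in proliferating progenitors, 66324 and 93473 in differentiating progenitors, with 6540 to 8265 in neurons. The 9 intermediate progenitor markers summed to 23737 to 28611 in proliferating progenitors, 69615 to 85480 in differentiating progenitors and 18051 to 25297 in neurons. The 9 pan-neuronal markers summed to 2360 to 5799 in proliferating progenitors, 24695 to 30720 in differentiating progenitors, and to 130889 to 154196 in neurons. The progenitor gates were not free of neuronal transcripts, and replicate 1 held the most of them among proliferating progenitors, with Dcx, a microtubule-binding protein of young neurons, at 1944, 778 and 499 in replicates 1, 2 and 3. In bulk samples of this kind, fewer cells of a type and less RNA per cell cannot be told apart.

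Promoter windows for 26 of the 31 members were found in RefSeq's table for build GRCm38.p6, while the submitters' processing notes name mm9. The 250 bases before the start of 2 pairs of members are shown because each pair moved together across the groups. Both neuropilins were higher at each step towards neurons, and both class 5 semaphorins were lower. Capitals mark the searched motifs, on either strand: the GC box GGGCGG, the E-boxes CAGCTG and CAGATG, the T-box core GGTGTGA and the nuclear factor I site TTGGCA.
Nrp1, chr8:128358823-128359072 (+ strand): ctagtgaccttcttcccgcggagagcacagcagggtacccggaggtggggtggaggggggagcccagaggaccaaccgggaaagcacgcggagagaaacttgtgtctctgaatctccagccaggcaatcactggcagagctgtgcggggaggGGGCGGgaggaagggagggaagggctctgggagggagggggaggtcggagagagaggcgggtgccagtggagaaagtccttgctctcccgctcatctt
Nrp2, chr1:62703067-62703316 (+ strand): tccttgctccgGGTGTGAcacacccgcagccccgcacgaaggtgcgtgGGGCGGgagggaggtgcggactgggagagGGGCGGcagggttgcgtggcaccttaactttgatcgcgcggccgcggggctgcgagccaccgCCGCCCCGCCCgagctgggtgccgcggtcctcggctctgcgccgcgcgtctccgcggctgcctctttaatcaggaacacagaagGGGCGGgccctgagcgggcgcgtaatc
Sema5a, chr15:32244563-32244812 (+ strand): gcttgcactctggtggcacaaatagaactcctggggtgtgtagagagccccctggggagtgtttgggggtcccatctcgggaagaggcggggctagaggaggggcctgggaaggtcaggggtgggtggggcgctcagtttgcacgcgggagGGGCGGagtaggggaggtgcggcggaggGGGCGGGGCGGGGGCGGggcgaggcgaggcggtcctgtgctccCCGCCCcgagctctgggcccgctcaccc
Sema5b, chr16:35541112-35541361 (+ strand): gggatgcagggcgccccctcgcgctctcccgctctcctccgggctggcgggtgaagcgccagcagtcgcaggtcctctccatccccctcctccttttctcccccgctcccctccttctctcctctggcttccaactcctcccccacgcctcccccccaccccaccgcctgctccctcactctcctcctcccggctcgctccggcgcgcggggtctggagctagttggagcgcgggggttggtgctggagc
The windows were rich in G and C, with 64.4% in Nrp1, 72.4% in Nrp2, 72% in Sema5a and 72% in Sema5b, against a median of 52.4% over all 32851 windows of the table. GC boxes stood in Nrp1, Nrp2 and Sema5a, and none of the searched letters occurred in the Sema5b window. Of the 37 member windows, which belong to 26 genes, 73% held a GC box, against 32.7% of all windows. The median share of G and C was 64% in member windows and 52.4% in all windows, and the motif shares were not adjusted for it. The E-box CAGCTG was in 16.2% of member windows and 13% of all windows, and the E-box CAGATG in 5.41% and 14.4%. The T-box core, which Nrp2 carries, was in 5.41% of member windows and 3.33% of all windows, and the nuclear factor I site in 2.7% and 12.3%. These matches are descriptions of letters and were not tied to any factor here.

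Of the 31 members, 30 passed the filter on low values, and each of them had all 3 libraries at 10 or more in at least 2 groups. Plxnb3, known as a receptor of Sema5a, was the member left out, with values of 3, 0 and 2 in proliferating progenitors, 0, 1 and 2 in differentiating progenitors, and then 1, 0 and 0 in neurons. In differentiating over proliferating progenitors, 15 members were called higher and 8 lower, which is 76.7% of those tested. Of all genes tested 24.9% were called, 13.8% higher and 11.1% lower. In neurons over differentiating progenitors, 20 were higher and 8 lower, which is 93.3%, where 54.0% of all genes were called, 27.6% higher and 26.4% lower. Neurons over proliferating progenitors gave 19 higher and 10 lower, which is 96.7%, where 63.3% of all genes were called, 32.2% higher and 31.1% lower. Values did not overlap between the groups for 26, 29 and 29 members in these comparisons, beside 37.7%, 60.7% and 67.6% of all genes tested. The median log2 change of the tested members was 0.52, 0.75 and 1.72, beside -0.02, -0.01 and -0.02 over all genes. The 3 comparisons share libraries, so their counts are not independent of each other. Group means were highest in proliferating progenitors for 7 of the 30 members, in differentiating progenitors for 3 and in neurons for 20 (23.3%, 10% and 66.7%), while over all genes tested the shares were 38.6%, 18.4% and 43%.

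**Figure D1:**
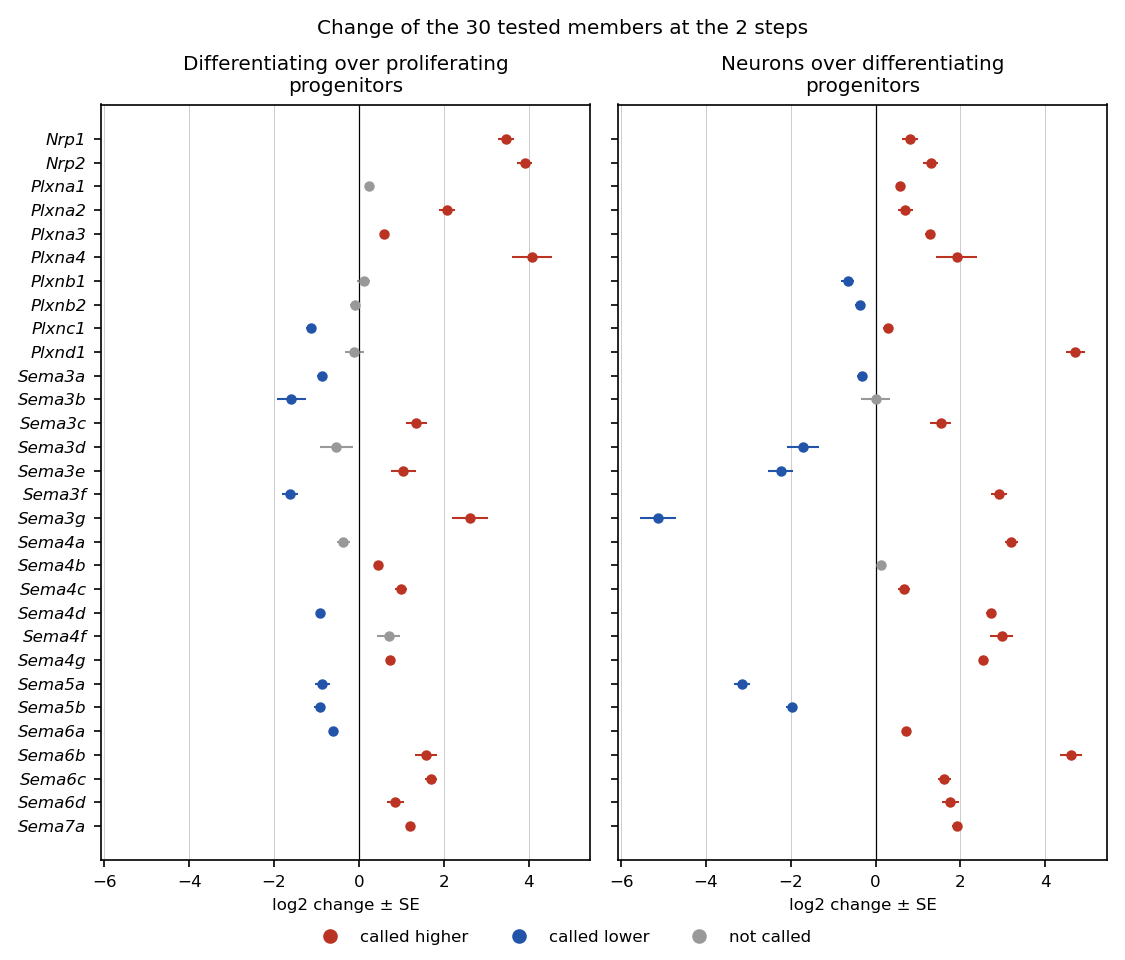
Log2 change (x axis, ± SE) of each of the 30 tested members (y axis), for differentiating over proliferating progenitors on the left and neurons over differentiating progenitors on the right; red points were called higher, blue lower and grey not called at an adjusted p of 0.05. Nrp1, Nrp2 and Plxna4 moved most to the right in the left panel, and Sema3g is the point at -5.13 in the right panel.

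Summed over the genes of a class and divided by gene length, the receptors and ligands changed their makeup. The A plexins together stood at 1458 ± 86.8 normalised reads per kilobase in proliferating progenitors, 3451 ± 268 in differentiating progenitors and 7142 ± 594 in neurons. B plexins stood at 3041 ± 432 in proliferating progenitors, 3023 ± 254 in differentiating progenitors and 2117 ± 85.4 in neurons, so B plexins were the larger receptor class in proliferating progenitors and A plexins in neurons. The class 5 semaphorins, the most abundant ligand class of proliferating progenitors on this scale, stood at 2295 ± 92.7 in proliferating progenitors, 1241 ± 67.7 in differentiating progenitors and 220.1 ± 42.2 in neurons. Class 4 stood at 862 ± 71.8 in proliferating progenitors, 1382 ± 161 in differentiating progenitors and 3633 ± 23.3 in neurons, and class 6 at 384 ± 44.2 in proliferating progenitors, 696 ± 119.6 in differentiating progenitors and 2439 ± 25.8 in neurons. Neurons therefore held the most class 4 and class 6 reads per kilobase and the fewest of class 5. These sums are descriptions and carry no test.

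**Figure D2:**
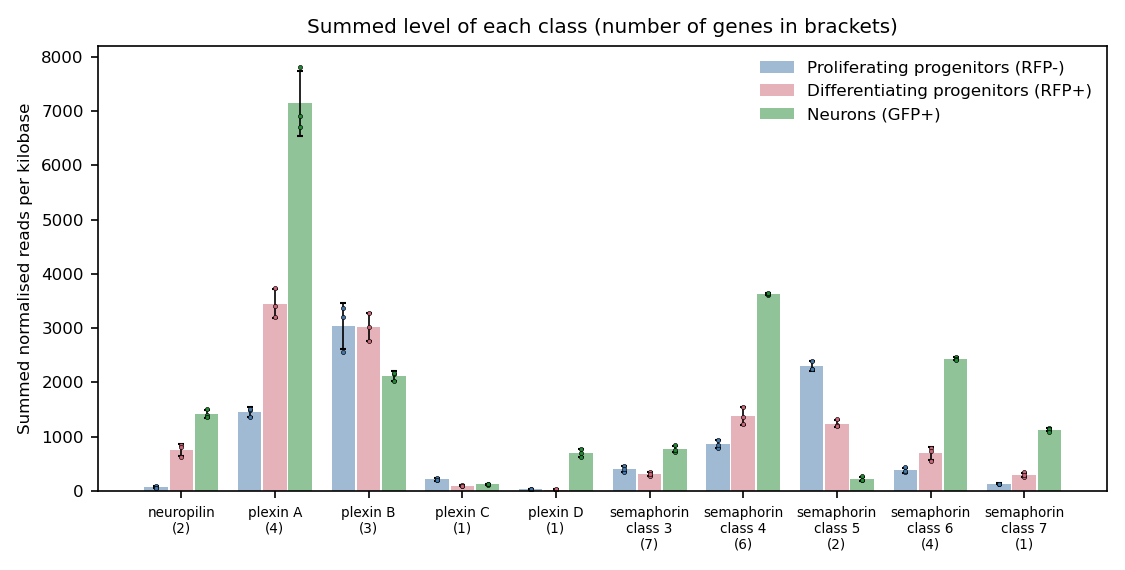
Summed normalised reads per kilobase (y axis, from 0) of each semaphorin, plexin and neuropilin class in proliferating progenitors, differentiating progenitors and neurons; bars are means, error bars SD and points the 3 libraries. A plexins climb to a mean of 7142 in neurons while class 5 semaphorins shrink to 220.1.

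Both neuropilins rose at each step towards neurons. Nrp1, which binds Sema3a and also vascular endothelial growth factor, stood at 438, 278 and 269 normalised read counts in the proliferating progenitor libraries, 2967, 3879 and 3887 in the differentiating progenitor libraries and 6171, 6470 and 5914 in the neuron libraries. No value of a later group reached down to an earlier group. Nrp1 was 11.1-fold higher in differentiating than in proliferating progenitors (log2 change 3.47 ± 0.19, adjusted p = 1.13e-05), and higher again in neurons over differentiating progenitors (log2 change 0.80 ± 0.19, adjusted p = 0.00546). Nrp2, which prefers Sema3f, stood at 119, 78 and 91 in proliferating progenitors, 1184, 1770 and 1415 in differentiating progenitors, with 3382, 3882 and 3397 in neurons, again without overlap. Its change was 15-fold between the progenitor groups (log2 change 3.91 ± 0.18, adjusted p = 8.14e-06) and 2.47-fold from there in neurons (log2 change 1.30 ± 0.18, adjusted p = 0.000253). Per kilobase of gene length, Nrp1 exceeded Nrp2 in all 9 libraries, by 4.76 to 5.93 times in proliferating progenitors, 3.53 to 4.42 times in differentiating progenitors and 2.68 to 2.94 times in neurons. These ranges do not overlap between groups, so the margin of Nrp1 over Nrp2 was smaller in each later group.

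All 4 A plexins, the signalling partners of neuropilins, were higher in neurons than in either progenitor group. Plxna4, a receptor that serves Sema3a with Nrp1 and also binds class 6 ligands, had 831 in replicate 1 and 309 in replicate 2 of proliferating progenitors, with a mean of 436 ± 349 over the group, 5423, 7172 and 5469 in differentiating progenitors, and then 28814, 20045 and 19484 in neurons. Replicate 1 was the highest and replicate 3 the lowest of the proliferating progenitor libraries, as it was for Dcx. The groups did not overlap, and differentiating progenitors were 17-fold above proliferating progenitors (log2 change 4.08 ± 0.48, adjusted p = 0.000358), with a log2 change of 4.71 without proliferating progenitor replicate 1. In neurons the log2 change was 1.91 ± 0.48 over differentiating progenitors (adjusted p = 0.00778) and 5.99 ± 0.48 over proliferating progenitors, or 6.61 without that same library. Plxna2, a receptor of Sema6a and a partner of neuropilins, stood at 7241, 5713 and 4265 in proliferating progenitors, 21198, 26200 and 23864 in differentiating progenitors, and then 42788, 36289 and 36435 in neurons. Its values do not overlap between any 2 groups. Plxna2 rose in differentiating over proliferating progenitors (log2 change 2.08 ± 0.18, adjusted p = 8.02e-05) and again in neurons over differentiating progenitors (log2 change 0.70 ± 0.18, adjusted p = 0.00899).

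Plxna3, which works with Nrp2 in responses to Sema3f, rose at both steps. It stood at 3487, 4202 and 4096 in proliferating progenitors, 5348, 6286 and 6202 in differentiating progenitors, with 13864, 14797 and 14374 in neurons. Neurons stood well above both progenitor groups, which lay close without overlapping. The log2 change was 0.60 ± 0.10 between the progenitor groups (adjusted p = 0.00228) and 1.27 ± 0.10 in neurons over differentiating progenitors (adjusted p = 4.85e-06). Plxna1, a receptor of Sema6d and a partner of Nrp1, had the smallest changes of the A plexins. It stood at 4611, 5238 and 4898 in proliferating progenitors, 6251, 5724 and 5464 in differentiating progenitors, with 8410, 9352 and 8225 in neurons. Neurons lay above all progenitor libraries (log2 change 0.58 ± 0.09, adjusted p = 0.000446, over differentiating progenitors). Between the progenitor groups the values did not overlap, but the test was not passed (log2 change 0.24 ± 0.09, adjusted p = 0.0796) unless replicate number entered as a block (adjusted p = 0.0119). An antisense gene, Gm26811, shares 10.7% of the exon bases of Plxna1 in GENCODE release M21, and no source used here gives the strand setting of the counting. Per kilobase, Plxna2 exceeded Plxna4 by 7.26 to 21.2 times in proliferating progenitors, 3.04 to 3.64 times in differentiating progenitors and 1.24 to 1.56 times in neurons.

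B plexins went the other way, and the remaining plexins each had a pattern of their own. Plxnb1, a receptor of Sema4d, stood at 9962, 12741 and 14079 in proliferating progenitors, 11396, 12769 and 15330 in differentiating progenitors, and then 7637, 8178 and 9006 in neurons. Plxnb2, a receptor of Sema4c with a known role in cortical progenitors of the mouse, stood at 10532, 12984 and 13168 in proliferating progenitors, 10970, 11631 and 11473 in differentiating progenitors, and then 8528, 9150 and 8512 in neurons. The progenitor groups overlapped for both genes, and neither was called between them (adjusted p = 0.698 for Plxnb1 and 0.539 for Plxnb2). In neurons over differentiating progenitors both fell, Plxnb1 by 0.66 ± 0.15 on the log2 scale (adjusted p = 0.00472) and Plxnb2 by 0.38 ± 0.10 (adjusted p = 0.00882).

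Plxnd1, the Sema3e receptor that is also prominent in blood vessels, was low in both progenitor groups and abundant in neurons. Its values were 152, 207 and 282 in proliferating progenitors, 175, 173 and 235 in differentiating progenitors, with 5054, 4547 and 5588 in neurons. The progenitor groups overlapped (adjusted p = 0.812), and neurons stood 26.1-fold above differentiating progenitors (log2 change 4.71 ± 0.22, adjusted p = 2.55e-07). The 15 endothelial and mural markers summed to 819 to 1874 in proliferating progenitors, 413 to 458 in differentiating progenitors, and to 112 to 162 in neurons. Of the 13 tested, 4 were lower and 0 higher in neurons over differentiating progenitors. In that comparison 26.4% of all genes were lower and 27.6% higher. The part of endothelial and mural cells in the Plxnd1 values was not tested. Plxnc1, the plexin that binds Sema7a, stood at 1416, 1756 and 1425 in proliferating progenitors, 665, 753 and 678 in differentiating progenitors, and then 798, 879 and 894 in neurons. Proliferating progenitors lay highest without overlap, and Plxnc1 fell in differentiating progenitors relative to them (log2 change -1.13 ± 0.11, adjusted p = 0.000138). The small difference in neurons over differentiating progenitors (log2 change 0.29 ± 0.11, adjusted p = 0.0462) was lost with equal library totals (log2 change 0.08, adjusted p = 0.528), with no filter on low values (0.059), with no intensity trend (0.0674) and without proliferating progenitor replicate 3 (0.0542). It was also lost without differentiating progenitor replicate 1 (0.112) or 3 (0.117) and without neuron replicate 2 (0.125) or 3 (0.135). It was kept with replicate number as a block (0.00335).

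**Figure D3:**
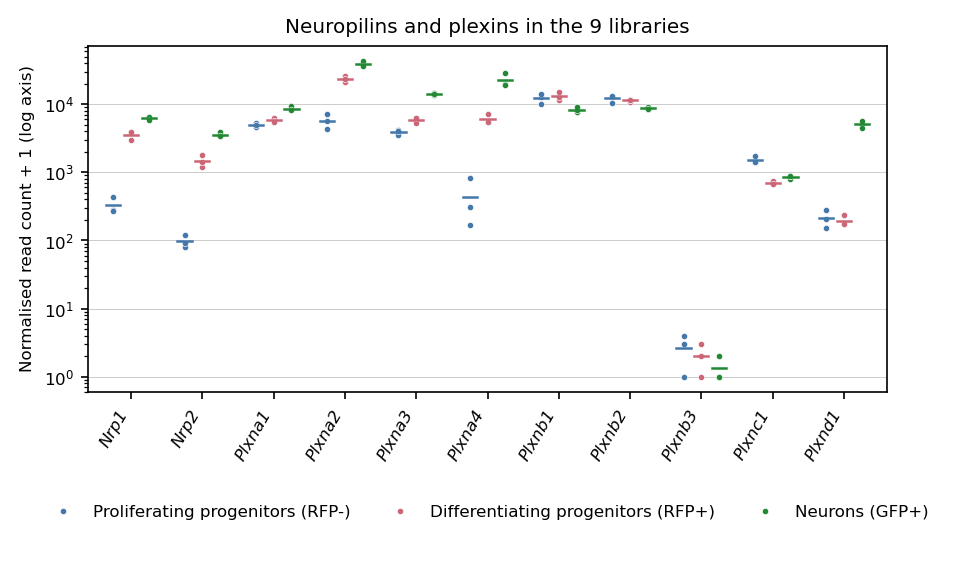
Normalised read count + 1 (log y axis) of the 2 neuropilins and 9 plexins in each library, with proliferating progenitors in blue, differentiating progenitors in red and neurons in green; points are libraries and lines group means. Nrp1, Nrp2 and Plxna4 separate proliferating progenitors from the rest, Plxnd1 separates neurons, and Plxnb3 lies between 0 and 3 counts.

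Secreted class 3 semaphorins had no common direction: 3 of 7 were called higher and 3 lower in differentiating over proliferating progenitors, and 2 higher and 4 lower in neurons over differentiating progenitors. Of all genes, 13.8% were higher and 11.1% lower in the first comparison, and 27.6% higher and 26.4% lower in the second. Sema3a, a repellent of cortical axons and of interneurons, stood at 1408, 1645 and 1352 in proliferating progenitors, 776, 912 and 732 in differentiating progenitors, with 660, 681 and 590 in neurons. Sema3a was thus highest where its co-receptor Nrp1 was lowest, and its groups did not overlap. It fell in differentiating relative to proliferating progenitors (log2 change -0.86 ± 0.12, adjusted p = 0.000834). The further difference in neurons, log2 change -0.32 ± 0.12, adjusted p = 0.0446, ended when any 1 library was left out other than proliferating progenitor replicate 2 or differentiating progenitor replicate 3, with adjusted p of 0.0512 to 0.151. It also ended with no filter on low values (0.0555), in a fit of these 2 groups alone (0.0563) and with no intensity trend (0.0644). With replicate number as a block its adjusted p was 0.000876. Sema3c, a secreted attractant of cortical axons in mice, averaged 261 ± 74.9 in proliferating progenitors, 663 ± 186 in differentiating progenitors and 1870 ± 64.5 in neurons. It rose at both steps (log2 change 1.35 ± 0.25, adjusted p = 0.00391, between the progenitor groups, and log2 change 1.53 ± 0.25, adjusted p = 0.000582, in neurons over differentiating progenitors).

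Sema3f and Sema3g had opposite patterns across the 3 groups. Sema3f, the main ligand of Nrp2, stood at 461, 721 and 735 in proliferating progenitors, 190, 188 and 228 in differentiating progenitors, and then 1304, 1754 and 1491 in neurons. Differentiating progenitors lay lowest without overlap, below proliferating progenitors (log2 change -1.63 ± 0.19, adjusted p = 0.000401), while neurons were 7.45-fold above them (log2 change 2.90 ± 0.19, adjusted p = 2.05e-06). Sema3g, which also binds Nrp2 and is known from arterial endothelium, stood at 40, 22 and 37 in proliferating progenitors, 175, 192 and 242 in differentiating progenitors, with 7, 2 and 7 in neurons. Here differentiating progenitors lay highest without overlap. They stood above proliferating progenitors (log2 change 2.62 ± 0.42, adjusted p = 0.00191), and neurons fell relative to them (log2 change -5.13 ± 0.42, adjusted p = 6.67e-06). The neuron values are worth only a few reads. Of 13 endothelial and mural markers tested, 7 were lower and 0 higher in differentiating than in proliferating progenitors. In that comparison 11.1% of all genes were lower and 13.8% higher. Kdr, a receptor of endothelial cells, nonetheless had its highest mean in differentiating progenitors as Sema3g did, with 108 in proliferating progenitors, 133 in differentiating progenitors and 23.7 in neurons. Of 6 meningeal markers tested, 0 were higher and 3, Col1a1, Col1a2 and Col3a1, were lower in differentiating than in proliferating progenitors. Of the others, Dcn averaged 31, 62.3 and 2.67 and Ptgds 26.7, 44.3 and 1.0 in proliferating progenitors, differentiating progenitors and neurons. Crabp2, with 132, 89 and 76.3 in these groups, was highest in proliferating progenitors and was called in no comparison. None of Kdr, Dcn and Ptgds was called between the progenitor groups. All 3 were lower in neurons than in differentiating progenitors (adjusted p = 0.00104 for Kdr, 1.36e-05 for Dcn and 2.18e-05 for Ptgds). The part of endothelial and meningeal cells in the Sema3g values was not tested.

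Sema3e, the Plxnd1 ligand, stood at 100, 93 and 48 in proliferating progenitors, 141, 195 and 146 in differentiating progenitors, with 34, 35 and 30 in neurons. Differentiating progenitors were again highest without overlap, and neurons fell relative to them (log2 change -2.24 ± 0.29, adjusted p = 0.000137). The difference between the progenitor groups (log2 change 1.05 ± 0.29, adjusted p = 0.0268) ended without proliferating progenitor replicate 3 (0.0527), differentiating progenitor replicate 2 (0.106) or differentiating progenitor replicate 3 (0.0634), and in a fit of these 2 groups alone (0.0529). That difference had an adjusted p of 0.00336 with replicate number as a block. Plxnd1, the receptor of Sema3e, was highest in neurons, where Sema3e was lowest. Intermediate progenitor markers were also highest in differentiating progenitors as a sum. All 9, among them the gate gene Btg2, were higher there than in proliferating progenitors (13.8% of all genes). In neurons over differentiating progenitors 7 were lower and 0 higher (26.4% and 27.6% of all genes). Their part in the Sema3e and Sema3g values was not tested. Sema3b and Sema3d were scarce throughout. Sema3b stood at 43, 77 and 76 in proliferating progenitors, 15, 23 and 24 in differentiating progenitors, and then 28, 14 and 21 in neurons, and fell between the progenitor groups (log2 change -1.59 ± 0.35, adjusted p = 0.00988). Sema3d stood at 48, 55 and 45 in proliferating progenitors, 44, 36 and 24 in differentiating progenitors, and then 5, 14 and 12 in neurons, with a fall in neurons over differentiating progenitors (log2 change -1.72 ± 0.38, adjusted p = 0.00408) that was -1.12 in replicates 2 and 3 alone (adjusted p = 0.0121).

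Class 4 semaphorins, membrane ligands of B plexins, were all higher in neurons than in proliferating progenitors (6 of 6), and 5 of 6 were higher in neurons than in differentiating progenitors. Of all genes, 32.2% and 27.6% were higher in these comparisons. Sema4g stood at 768, 740 and 791 in proliferating progenitors, 1126, 1334 and 1392 in differentiating progenitors, with 7595, 7451 and 6996 in neurons. The groups did not overlap. Sema4g rose between the progenitor groups (log2 change 0.74 ± 0.09, adjusted p = 0.000541) and again in neurons over differentiating progenitors (log2 change 2.52 ± 0.09, adjusted p = 1.03e-07). Sema4c, the Plxnb2 ligand, stood at 1553, 1735 and 2045 in proliferating progenitors, 2994, 3460 and 4163 in differentiating progenitors, with 5284, 5459 and 5850 in neurons. The groups did not overlap. Sema4c rose at each step, by 0.99 ± 0.14 in differentiating over proliferating progenitors (adjusted p = 0.000926) and 0.66 ± 0.14 in neurons over differentiating progenitors (adjusted p = 0.00298); the gene D430040D24Rik shares 7.27% of its exon bases on the opposite strand. Sema4d, also called CD100, dipped between its 2 higher groups, at 601, 647 and 649 in proliferating progenitors, 361, 308 and 338 in differentiating progenitors, and then 1961, 2291 and 2344 in neurons. Differentiating progenitors fell relative to proliferating progenitors (log2 change -0.91 ± 0.10, adjusted p = 0.000299), and neurons were 6.53-fold above differentiating progenitors (log2 change 2.71 ± 0.10, adjusted p = 1.07e-07).

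Sema4a and Sema4f were low in progenitors and many-fold higher in neurons. Sema4a, known from immune cells and retina, stood at 67, 63 and 73 in proliferating progenitors, 49, 49 and 59 in differentiating progenitors, and then 474, 473 and 515 in neurons. Neurons were 9.18-fold above differentiating progenitors (log2 change 3.20 ± 0.15, adjusted p = 2.28e-07). Sema4f stood at 54, 87 and 119 in proliferating progenitors, 116 and 126 in replicates 1 and 2 of differentiating progenitors, whose 3 libraries averaged 136 ± 26.5, with 979, 1080 and 1117 in neurons. Its neurons were 7.82-fold above differentiating progenitors (log2 change 2.97 ± 0.27, adjusted p = 1.3e-05). The progenitor groups overlapped for Sema4f and not for Sema4a. Neither passed between the progenitor groups (log2 change -0.37, adjusted p = 0.103 for Sema4a and 0.70, adjusted p = 0.0904 for Sema4f). With replicate number as a block both did (adjusted p = 0.0301 for Sema4a and 0.0059 for Sema4f), and Sema4f also without proliferating progenitor replicate 3 (0.0265), Sema4a also without an intensity trend (0.0476). Sema4b had the smallest change of the class in neurons over proliferating progenitors (log2 change 0.57), and stood at 1003, 1036 and 1052 in proliferating progenitors, 1386, 1423 and 1412 in differentiating progenitors, and then 1709, 1440 and 1447 in neurons. It rose between the progenitor groups (log2 change 0.45 ± 0.09, adjusted p = 0.00516) and was not called in neurons over differentiating progenitors (log2 change 0.12 ± 0.09, adjusted p = 0.286, or -0.1 with equal library totals), although the values did not overlap.

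The class 5 semaphorins, membrane proteins with thrombospondin repeats, were highest in proliferating progenitors. Sema5a stood at 17067, 14799 and 13106 in proliferating progenitors, 8682, 8697 and 7351 in differentiating progenitors, with 1246, 825 and 777 in neurons. No groups overlapped. It fell between the progenitor groups (log2 change -0.86 ± 0.18, adjusted p = 0.00809) and in neurons over differentiating progenitors (log2 change -3.15 ± 0.18, adjusted p = 7.9e-07), and was 16-fold lower in neurons than in proliferating progenitors. Sema5b stood at 7003, 7184 and 8204 in proliferating progenitors, 4248, 3462 and 4154 in differentiating progenitors, with 1174, 906 and 928 in neurons, again without overlap. The fall of Sema5b was seen between the progenitor groups (log2 change -0.92 ± 0.13, adjusted p = 0.000908) and in neurons over differentiating progenitors (log2 change -1.98 ± 0.13, adjusted p = 1.53e-06). In reads per kilobase the ratio of Sema5a to Sema5b was 0.938 to 1.43 in proliferating progenitors, 1.04 to 1.48 in differentiating progenitors and 0.492 to 0.623 in neurons. Radial glia markers fell with them. In differentiating over proliferating progenitors 6 of 11 were lower, where 11.1% of all genes were. In neurons over differentiating progenitors 11 of 11 were lower, where 26.4% of all genes were. The part of radial glia in the fall was not tested. Plxnb3, a receptor of Sema5a, was nearly undetected in all 9 libraries as given above.

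**Figure D4:**
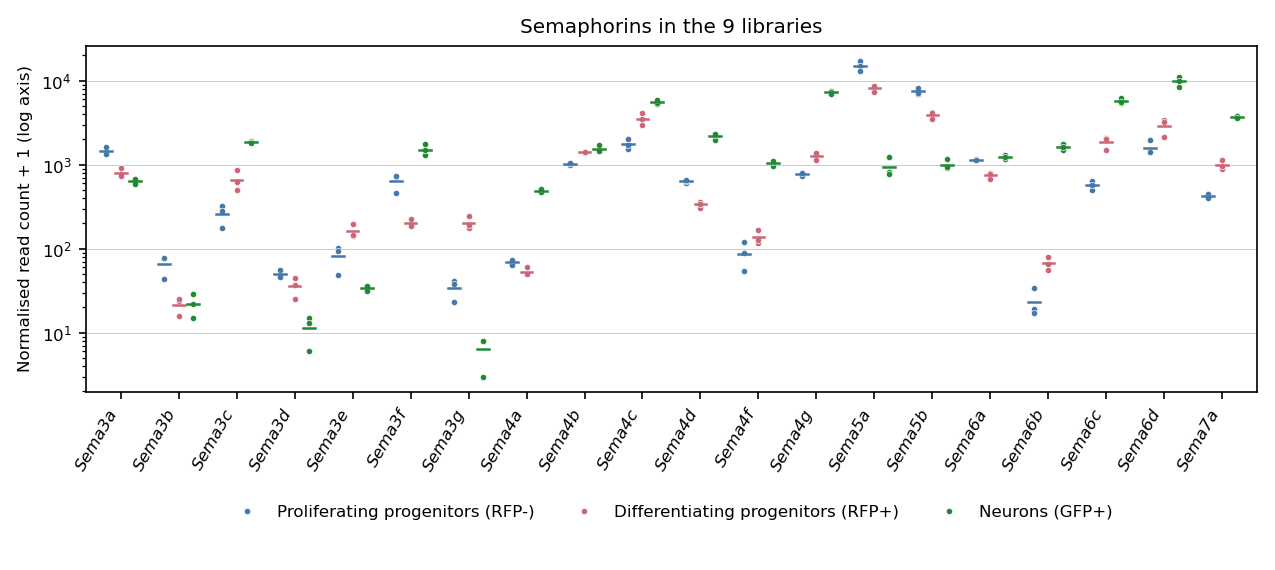
Normalised read count + 1 (log y axis) of the 20 semaphorins in each library, with proliferating progenitors in blue, differentiating progenitors in red and neurons in green; points are libraries and lines group means. Sema5a and Sema5b descend from blue to green, Sema6b, Sema6c and Sema7a ascend, and Sema3g peaks in red.

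Of class 6, 3 of the 4 semaphorins, transmembrane ligands of A plexins, rose at both steps. Sema6b, a ligand of Plxna4, stood at 33, 18 and 16 in proliferating progenitors, 55, 78 and 65 in differentiating progenitors, and then 1486, 1752 and 1622 in neurons. No groups overlapped. It had the largest change of the 30 tested members in neurons over proliferating progenitors, 72.8-fold (log2 change 6.19 ± 0.26, adjusted p = 8.09e-08), most of it in neurons over differentiating progenitors (log2 change 4.61 ± 0.26, adjusted p = 7.7e-07). Plxna4 lay within the summed SE of Sema6b in neurons over proliferating progenitors (log2 change 5.99 ± 0.48), so this rank is not firm. Sema6c stood at 639, 506 and 572 in proliferating progenitors, 1482, 2102 and 2036 in differentiating progenitors, and then 5367, 6233 and 5523 in neurons, without overlap. Its log2 changes were 1.70 ± 0.15 in differentiating over proliferating progenitors (adjusted p = 8.11e-05) and 1.62 ± 0.15 in neurons over differentiating progenitors (adjusted p = 1.45e-05). Sema6d, a Plxna1 ligand, stood at 1951, 1437 and 1409 in proliferating progenitors, 2162, 3399 and 3232 in differentiating progenitors, with 11179, 8318 and 9930 in neurons. Its groups did not overlap, and it rose in neurons over differentiating progenitors (log2 change 1.76 ± 0.20, adjusted p = 6.26e-05). Its rise between the progenitor groups (log2 change 0.86 ± 0.20, adjusted p = 0.0129) ended without proliferating progenitor replicate 2 (0.0531) or 3 (0.0521) and without differentiating progenitor replicate 2 (0.056) or 3 (0.0538). That rise had an adjusted p of 0.00469 with replicate number as a block. Sema6a, a Plxna2 and Plxna4 ligand, stood at 1178, 1137 and 1124 in proliferating progenitors, 807, 785 and 681 in differentiating progenitors, with 1156, 1296 and 1251 in neurons. It fell between the progenitor groups (log2 change -0.60 ± 0.09, adjusted p = 0.00158) and was higher in neurons than in differentiating progenitors (log2 change 0.71 ± 0.09, adjusted p = 0.000153), while neurons and proliferating progenitors overlapped (log2 change 0.11, adjusted p = 0.351, or -0.18 with equal library totals).

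Sema7a, the lipid-anchored member, which promotes axon growth through integrins, stood at 448, 442 and 397 in proliferating progenitors, 881, 1128 and 978 in differentiating progenitors, and then 3834, 3762 and 3608 in neurons. The groups did not overlap. Sema7a rose between the progenitor groups (log2 change 1.21 ± 0.10, adjusted p = 7.95e-05) and in neurons over differentiating progenitors (log2 change 1.91 ± 0.10, adjusted p = 5.85e-07). Its receptor Plxnc1 was highest in proliferating progenitors, so its highest group was the lowest of its ligand.

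Most markers of neuron kinds other than cortical projection neurons were also higher in neurons. Of 12 interneuron and ventral markers tested, 11 were higher and 0 lower in neurons than in proliferating progenitors. Over differentiating progenitors 8 were higher and 0 lower. Of all genes, 32.2% were higher and 31.1% lower in the first of these comparisons, and 27.6% higher and 26.4% lower in the second. The list of 13 summed to 996 to 1703 in proliferating progenitors, 1324 to 3927 in differentiating progenitors and 9608 to 10797 in neurons. Lhx6, a transcription factor of interneurons from the medial eminence, stood at 1449, 1603 and 1881 in the neuron libraries, against at most 24 in any progenitor library, and Nkx2-1 was under 10 in all 9. All 9 Cajal-Retzius markers were higher in differentiating than in proliferating progenitors, where 13.8% of all genes were. All 9 were also higher in neurons than in proliferating progenitors. Over differentiating progenitors 7 were higher and 1, Ebf2, was lower. The 9 summed to 254 to 364 in proliferating progenitors, 2113 to 2828 in differentiating progenitors and 20003 to 22982 in neurons. The part of these neuron kinds in the rise of Nrp2, Plxnd1, Sema3c and the other members, at either step, was not tested. The 12 microglia markers summed to 224 to 293 in proliferating progenitors, 119 to 146 in differentiating progenitors and 33 to 48 in neurons, with Aif1 and Trem2 under 10 in all 9 libraries. The 9 meningeal markers summed to 425 to 3129 in proliferating progenitors, 213 to 291 in differentiating progenitors, and to 71 to 138 in neurons.

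Levels between genes can be compared only per length of gene. In proliferating progenitors the highest member was Plxnb2 with 1671 ± 201 normalised reads per kilobase, then Plxnb1 with 1369.6 ± 235, Sema5a with 1242 ± 165 and Sema5b with 1053 ± 91.3, and each of these neighbours lay within the summed SD of the next. A gap followed to Plxna1 at 545 ± 34.8. In differentiating progenitors Plxna2 at 1574, Plxnb2 at 1552 ± 47.2 and Plxnb1 at 1471 ± 223 led without differing beyond their spread, and Sema4c at 771 ± 128 and Plxna3 at 754 ± 65.9 came next. In neurons Plxna2 led at 2551 ± 246, ahead of Plxna3 at 1820.4 ± 59.3, Plxna4 at 1811 ± 416 and Sema4g at 1509 ± 64.2. Plxna3, Plxna4 and Sema4g formed a run in which Plxna4 differed from neither neighbour beyond their spread. Sema5a, at 1242 ± 165 in proliferating progenitors, was at 78.7 ± 21.4 in neurons.

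Intracellular partners of the receptors rose more often than they fell. The list held 39 genes in 40 rows of the table, all tested. Of these rows, 11 were higher and 3 lower in differentiating over proliferating progenitors (35%), 20 higher and 5 lower in neurons over differentiating progenitors (62.5%), and 28 higher and 4 lower in neurons over proliferating progenitors (80%). These shares stand beside 24.9%, 54.0% and 63.3% of all genes. Of all genes, 13.8% were higher and 11.1% lower in the first of these comparisons. In the second 27.6% were higher and 26.4% lower, and in the third 32.2% and 31.1%. The 4 lower in neurons over proliferating progenitors were Rras, Rhod, Rhoa and Rnd1. Rras averaged 172 in proliferating progenitors, 73 in differentiating progenitors and 3.33 in neurons (log2 change -5.36 ± 0.30, adjusted p = 3.83e-07, in neurons over proliferating progenitors). Rnd2, a small GTPase that drives neuronal migration, averaged 5987 ± 861 in differentiating progenitors and 757 ± 218 in proliferating progenitors (log2 change 3.01 ± 0.20, adjusted p = 2.43e-05). The collapsin response mediator genes Dpysl5 (log2 change 1.40 ± 0.11) and Crmp1 (1.87 ± 0.17) and the Cdk5 activator Cdk5r1 (2.28 ± 0.20) rose at the same step. In neurons, Dpysl3 averaged 52493 ± 3647, against 11245 ± 1183 in differentiating progenitors (log2 change 2.23 ± 0.13, adjusted p = 8.56e-07), and the kinase Pak1 rose as well (1.75 ± 0.11).

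A list of co-receptors and alternative receptors, which also holds the secreted neuropilin ligands Vegfa, Vegfb and Vegfc, had more members lower than higher. Of 24 tested, 4 were higher and 8 lower in differentiating over proliferating progenitors (50%, where 13.8% of all genes were higher and 11.1% lower). In neurons over differentiating progenitors 8 were higher and 13 lower (87.5%, where 27.6% of all genes were higher and 26.4% lower). Neurons over proliferating progenitors gave 8 higher and 14 lower (91.7%, where 32.2% of all genes were higher and 31.1% lower). The lower genes include Vegfa and Vegfb in the first comparison, and Vegfa, Vegfb and Vegfc in the other two. L1cam, the adhesion molecule that joins Nrp1 in the Sema3a receptor, averaged 2976 ± 658 in differentiating progenitors and 206 ± 107 in proliferating progenitors (log2 change 3.93 ± 0.30, adjusted p = 4.79e-05). Its homologue Chl1 was higher in neurons than in proliferating progenitors by 7.83 ± 0.41 (adjusted p = 2.47e-07). Among those that fell, Erbb2, a receptor kinase that couples to B plexins, averaged 22 ± 4.58 in neurons and 602 ± 75.5 in differentiating progenitors (log2 change -4.72 ± 0.19, adjusted p = 1.29e-07). The proteoglycan Bcan also fell in neurons over differentiating progenitors (-4.78 ± 0.25, adjusted p = 4.79e-07).

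The authors' deposited table makes its own calls from the same libraries. Its adjusted p-values put 14 members higher and 8 lower in differentiating over proliferating progenitors, 19 higher and 6 lower in neurons over differentiating progenitors, and 19 higher and 10 lower in neurons over proliferating progenitors, all of them also called here in the same direction. Calls made here and not in the authors' deposited table were Sema4b at the earlier step and Plxnb2, Plxnc1 and Sema3a at the later step. KEGG's axon guidance term is attached in that table to 29 of the 31 members, and Nrp2 and Plxnd1 are those without it.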

How the data were processed

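Poly-A RNA of 9 libraries, 3 per sorted population, was sequenced, per the labels by a strand-specific method. The genome build mm9 and the tools BWA, CASAVA 1.8.0, DESeq 1.8.1 and bedtools 2.11 are named per the submitters' processing notes, and per the file headers the genes are those of Ensembl version 61. No source used here gives the strand setting of the counting. The authors deposited normalised read counts rounded to whole numbers, treated here as a score rather than as raw counts. The authors' deposited table also gives fold changes and adjusted p-values of their own.

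Here, log2(value + 1) of all 9 libraries went into 1 limma fit (version 3.58.1, R 4.3.3, intensity trend), which left 6 residual degrees of freedom beside 3 group means. Genes had to reach 10 in 3 or more libraries, and Benjamini-Hochberg adjustment of p-values ran over the 15828 genes that passed, with a threshold of 0.05. Values per kilobase divide by the deposited gene length. A member has its value in every library printed if it was called at least once and was among the 6 largest changes of a direction, or averaged at least 1000. For Plxna4 in proliferating progenitors and Sema4f in differentiating progenitors, replicates 1 and 2 and the group mean are given instead. Sema3c fell outside this rule. Of each other list, up to 4 called genes with the smallest adjusted p could be named. The intracellular partners that were lower in neurons over proliferating progenitors are named besides. The member rule uses symbols alone, but the gene family and the lists were chosen with earlier results of these data known.

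Libraries with the same replicate number deviated together (9 pairs, r 0.507 to 0.767, against -0.64 to 0.428 in the 18 other pairs). Deviations were taken from the group mean, so they cancel within each group. Positive r among equal numbers therefore lowers r among the other pairs, and the contrast is no separate result. Among the other pairs, those with a replicate 1 library ran from -0.64 to -0.545. Those of replicates 2 and 3 ran from 0.272 to 0.428. The numbers thus pair the samples, with replicate 1 apart from replicates 2 and 3. The reported p-values and calls come from the fit without a block, which leaves this pairing out. A fit with a replicate block was therefore 1 of the alternatives. The other alternatives were pseudocounts of 0.5 and 5, other filters, equal library totals, 2 groups at a time, no trend, replicates 2 and 3 alone and each library left out in turn.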

Additional observations from a re-analysis of the deposited data

How the results depend on the processing

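The counts of called members stayed within 1.5 times of the reported ones under all alternatives run. Leaving out each library in turn gave 13 to 15 higher and 8 lower in differentiating over proliferating progenitors, 19 to 20 higher and 7 to 8 lower in neurons over differentiating progenitors, and 19 higher and 10 lower in neurons over proliferating progenitors. The replicate block gave 17 higher and 9 lower, 20 and 8, and 19 and 10 in these comparisons, adding Plxna1, Sema4a and Sema4f between the progenitor groups and changing no other call. Equal library totals moved the median log2 change of all genes to -0.09, -0.22 and -0.30, and the calls over all genes in neurons over proliferating progenitors to 3903 higher and 6607 lower, against 5099 and 4924; the members gave 15 and 8, 19 and 8, and 19 and 10.

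Of the single values, 1574 kept direction and call, 26 lost a call, 5 gained one and 9 changed sign; none of these 9 was called as reported. In differentiating over proliferating progenitors, Plxnb1 was -0.04 without proliferating progenitor replicate 1 and -0.01 without differentiating progenitor replicate 3, and ran from -0.04 to 0.21 over all left-out libraries. Plxnd1 was 0.12 without proliferating progenitor replicate 3 and ran from -0.33 to 0.12. In neurons over differentiating progenitors, Sema3b was 0.0 with a pseudocount of 5, 0.09 and 0.12 without differentiating progenitor replicates 2 and 3, and 0.25 without neuron replicate 2, in a range of -0.23 to 0.25 over left-out libraries, and Sema4b was -0.1 with equal totals. Sema6a was -0.18 with equal totals in neurons over proliferating progenitors. The cause was not tested. Values under 10, as for Plxnb3 and for Sema3g in neurons, rest on few reads.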
